A study of Homo sapiens with 9 samples.

Results

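The 48 genes described here lie along chromosome 16q23-q24, the outer part of the long arm, between the start of WDR59 and the end of EMC8 (GRCh38, chr16:74871362-85799544, 10.9 Mb). They were picked because this block was higher in BrM2, the brain metastatic sub-population of the MDA-MB-231 breast cancer line, than in the parental line (Par). The members were chosen by their log2 fold changes in BrM2 against Par, so the values of that comparison are a description and carry no test. Of 58884 genes counted, 46 members were matched by the symbol deposited with the counts. The other 2, PLCG2 and NUDT7, had rows without a symbol, were found through their Ensembl identifiers, and are given apart from the counts below. A filter on low counts kept 35 of the 46, among 13055 genes tested in all. Of these 35, 33 passed it in each of the 3 lines, LDHD passed through 1 BrM2 library only and HSD17B2 only through LM2 and BrM2, so these 2 entered through the lines where they were high.

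Expression was measured by RNA-seq in MDA-MB-231 cells (Par), in LM2, its lung metastatic sub-population, and in BrM2. MDA-MB-231 is an established human line of the claudin-low, hormone receptor negative kind. LM2 and BrM2 are populations of that line selected in mice for metastasis to lung and to brain, so each stands for 1 selection history. The methods report that the lines were typed as MDA-MB-231. They do not state whether the Par cells used are the culture from which LM2 and BrM2 were selected. No group received a further treatment. Each line had 3 biological replicates, which the methods describe as cells of different passages in culture.

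The long arm of chromosome 16 is known in breast cancer as a region often lost from tumours. Its outer part holds WWOX, a very large gene across a common fragile site, beside genes of unrelated function: a lysyl-tRNA synthetase, a telomere protein, a deubiquitinase, steroid dehydrogenases and secreted proteins. These genes do not form a pathway, and what they share by the rule is their place on the chromosome and their level in BrM2.

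Total counts on genes ran from 14371858 to 24511786 per library, and a count of 3 corresponded to 0.115 to 0.221 CPM, the count of a gene scaled to the normalized size of each library. The markers of the line fixed for the check (VIM, CD44, FN1 and AXL) summed to 3200 to 6320 CPM in every library. A list of 8 luminal and epithelial markers that the line should lack or hold at low level summed to 84.4 to 273 CPM. The lowest of these was PGR, at or near 0, and the highest was ERBB2, with means of 112 CPM in Par, 86.0 CPM in LM2 and 83.7 CPM in BrM2. Immune markers summed to 1.19 to 4.62 CPM, endothelial markers to 2.45 to 7.39 CPM and lung epithelial markers to 0 to 0.158 CPM. The brain list summed to 175 to 193 CPM in Par, 110 to 120 CPM in LM2 and 143 to 155 CPM in BrM2, nearly all of it MBP, and was therefore not highest in BrM2. Libraries of 1 replicate number tended to shift in common across the 3 lines, so values are also given from a model with the number as a block. In bulk RNA, fewer cells of a type and less RNA per cell cannot be told apart.

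Promoter sequences are shown for 4 places because the members moved together and because KARS and TERF2IP start from 1 stretch of DNA. They were taken from RefSeq windows on GRCh38.p14, are written 5′ to 3′ on the plus strand, and end at the base before a transcript start. Capitals mark GC boxes, the letters GGGCGG or, for the other strand, CCGCCC, and neighbouring boxes may share a base.
KARS and TERF2IP, the 107 bases between their divergent starts, chr16:75647666-75647772: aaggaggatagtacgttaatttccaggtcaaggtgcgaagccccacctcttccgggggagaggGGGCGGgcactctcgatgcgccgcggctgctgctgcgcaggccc
WWOX, 250 bases before the start, chr16:78099404-78099653: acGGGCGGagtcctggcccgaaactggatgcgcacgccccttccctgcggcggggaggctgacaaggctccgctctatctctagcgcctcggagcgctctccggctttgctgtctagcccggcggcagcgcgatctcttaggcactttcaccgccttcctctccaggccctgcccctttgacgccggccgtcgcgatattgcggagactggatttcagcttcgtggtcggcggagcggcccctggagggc
CMIP, 250 bases before the start, chr16:81444558-81444807: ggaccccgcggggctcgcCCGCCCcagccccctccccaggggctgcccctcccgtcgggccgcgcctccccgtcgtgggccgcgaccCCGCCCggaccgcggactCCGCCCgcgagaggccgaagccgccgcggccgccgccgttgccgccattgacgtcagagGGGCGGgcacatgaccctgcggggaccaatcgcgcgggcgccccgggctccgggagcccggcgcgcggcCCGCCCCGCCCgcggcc
CRISPLD2, 250 bases before the start, chr16:84819735-84819984: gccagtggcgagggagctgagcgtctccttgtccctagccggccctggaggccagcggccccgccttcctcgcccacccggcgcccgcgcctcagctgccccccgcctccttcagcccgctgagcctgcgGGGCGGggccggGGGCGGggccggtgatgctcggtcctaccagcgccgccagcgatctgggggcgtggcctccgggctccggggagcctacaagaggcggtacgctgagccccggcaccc
The first 3 stretches stand before members that were higher in BrM2 and the last before the member that was lowest there relative to Par. CMIP held 6 GC boxes, CRISPLD2 held 2, WWOX held 1 and the stretch between KARS and TERF2IP held 1. A window was found for 30 of the 35 tested members, of which 23 (76.7%) held a GC box, beside 67.9% of the windows of all tested genes and 42.3% of 27305 windows of the same length. A CCAAT box (CCAAT or ATTGG) was in 33.3% of the members' windows and in 35.3% of those of all tested genes. A TATA box (TATAAA or TTTATA) was in 0 of the 30 windows and in 5.12% of those of all tested genes.

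In BrM2, 32 of the 35 tested members had a positive log2 fold change against Par. The median over the members was 0.70, which is 1.62-fold, with quartiles of 0.53 and 0.96, beside a median of -0.02 over all tested genes. Of the 35, 11 were called higher and 1 lower at an adjusted p of 0.05 in edgeR, where 6.25% of all tested genes were called higher and 7.02% lower. With the replicate number as a block, 29 were called higher and 2 lower, against 19.5% and 23.2% of all tested genes. All these values come from the comparison that chose the members, and nothing is read from the counts. With PLCG2 added, 32 of 36 were positive and the median was 0.68.

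The shift was even in size for most members. The log2 fold change lay between 0.4 and 1 for 22 of the 35 (62.9%), a range that held 14.8% of all tested genes. Another 8 members were at 1 or more, 2 lay between 0 and 0.4, and 3 were below 0. The distance between the quartiles was 0.43 for the members and 0.73 for all tested genes. The members were picked on this comparison, so both contrasts with all tested genes are in part set by the choice. By library, the median of the members relative to their Par means was 0.77, 0.70 and 0.79 in BrM2, 0.22, 0.27 and 0.28 in LM2, and 0.09, -0.05 and -0.06 in Par. The 3 BrM2 medians thus lay above every LM2 and Par median, as the choice of the members would lead to for BrM2.

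**Figure D1:**
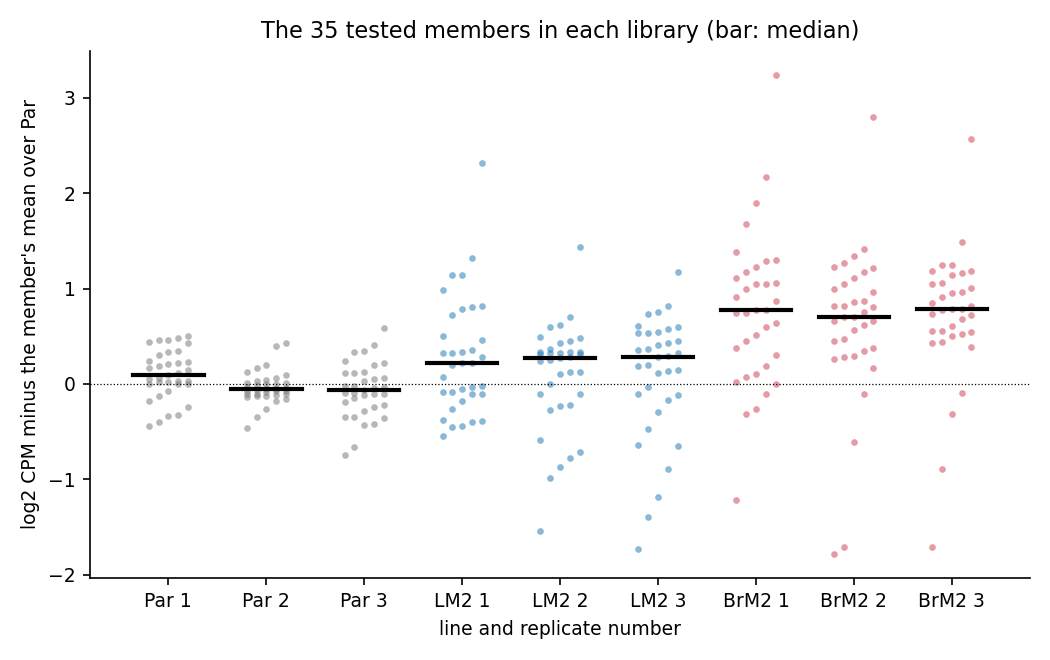
Each point is 1 of the 35 tested members in 1 of the 9 libraries, as log2 CPM minus that member's mean over the 3 Par libraries, and the black bars are medians. The BrM2 bars lie at 0.70 to 0.79 and the LM2 bars at 0.22 to 0.28, with a few members far below the rest in both sub-populations.

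Within the replicate numbers, 33, 30 and 32 of the 35 members were higher in BrM2 than in the Par library of the same number, with medians of 0.62, 0.76 and 0.73. All 3 BrM2 libraries exceeded all 3 Par libraries for 22 members and lay under all of them for 1. Among all tested genes the shares were 15.2% and 16.1%. The other 12 members overlapped, among them ZFP1, CFDP1 and CDYL2, whose BrM2 library of number 1 lay within the range of Par. These counts come from the comparison that chose the members, and nothing is read from them. The 22 include LDHD and HSD17B2, which passed the filter only through the lines where they were high.

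LM2 is described beside BrM2, and since the members were chosen for BrM2, smaller values in LM2 are in part set by the choice. The LM2 against Par median log2 fold change was 0.26, beside 0.01 over all tested genes, and 25 of the 35 values were positive. Of the members, 2 were called higher, WDR59 and HSD17B2, and 0 lower, with 4.17% of all tested genes called higher and 4.52% lower. At an unadjusted p under 0.05, 7 members passed upward and 1 downward, beside 9.47% and 10.8% of all tested genes. DESeq2 called 3 higher and 0 lower, beside 7.27% and 7.23%. The block gave 13 higher and 4 lower, against 15.5% and 19.1% of all tested genes. Of the 35, 11 had no overlap upward and 1 downward, which held for 11.8% and 13.4% of all tested genes. HSD17B2, which passed the filter only through LM2 and BrM2, is among the 2, the 7, the 13 and the 11, and nothing is read from its place in them. The comparison shares its Par libraries with the one that chose the members. Without replicate 3 of LM2 the median fell to 0.07.

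Between the sub-populations, BrM2 was higher than LM2 for 33 of the 35 members, with a median of 0.50 beside -0.03 over all tested genes. The 6 members called higher in BrM2 were ZNRF1, KARS, TERF2IP, WWOX, USP10 and ZDHHC7, and 0 were called lower in edgeR, where 4.11% and 3.99% of all tested genes were called. An unadjusted p under 0.05 was reached by 17 upward and 1 downward, beside 10.5% and 10.4% of all tested genes. DESeq2 called 11 higher and 1 lower, beside 6.91% and 7.06%. With the block, 24 were called higher and 1 lower, against 17.8% and 19.7% of all tested genes. The block's lower call was CRISPLD2. The 17 and the 24 both include LDHD, which passed the filter through 1 BrM2 library only. They also include HSD17B2, which passed it only through LM2 and BrM2. Nothing is read from the place of these 2 members in the counts. This comparison shares the BrM2 libraries with the one that chose the members, so a lead of BrM2 is in part set by the choice. The count of calls depended on single libraries: without replicate 1, 2 or 3 it was 11, 0 and 1 for LM2, and 3, 2 and 1 for BrM2, while the median stayed between 0.47 and 0.59. The shares of all tested genes called in these fits are not given, so nothing about the members is read from these counts.

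From the means of the 3 lines, 24 members ran from BrM2 through LM2 down to Par, an order seen in 18.2% of all tested genes. In 7 members (ZNRF1, LDHD, BCAR1, MBTPS1, TAF1C, ZDHHC7 and KIAA0513) BrM2 was highest and LM2 lowest, which 14.8% of all tested genes showed. The remaining 4 had other orders: MLYCD and OSGIN1 were highest in Par and lowest in LM2, SDR42E1 was highest in LM2, and CRISPLD2 fell from Par through LM2 to BrM2. Neighbours in these orders were often not separate: the LM2 and Par libraries overlapped in 23 of the 35 members. Of all tested genes, only 11.8% had LM2 above Par and 13.4% below it without overlap. Overlap was thus common among all genes too, and nothing about the members is read from it.

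**Figure D2:**
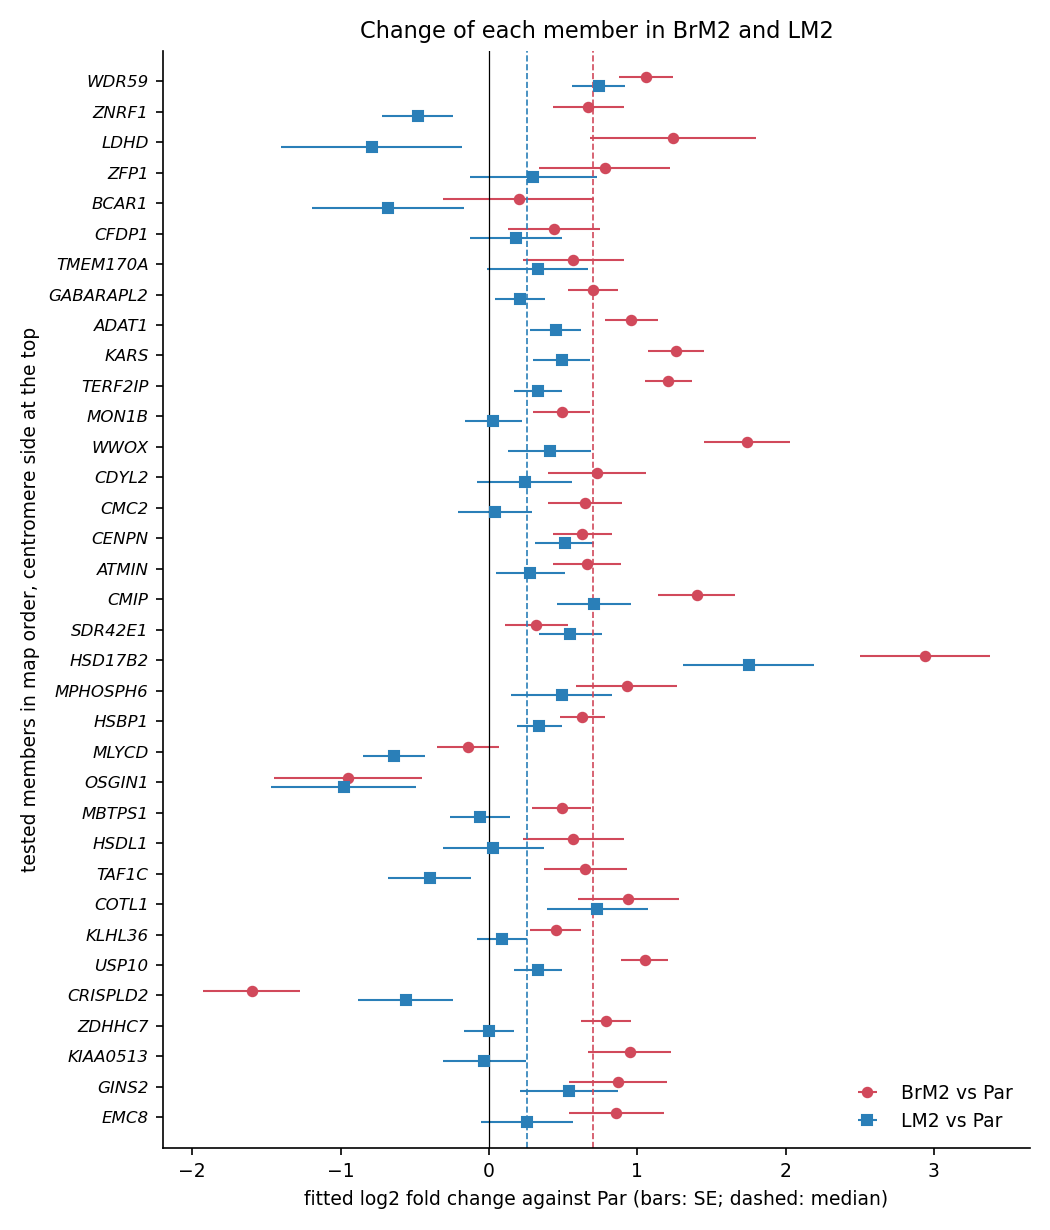
Fitted log2 fold changes against Par for the 35 tested members in map order, circles for BrM2 and squares for LM2, with standard errors as bars and the medians, 0.70 and 0.26, as dashed lines. Most BrM2 values stand in a narrow band, HSD17B2 and WWOX lie above it, and MLYCD, OSGIN1 and CRISPLD2 lie below 0.

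Among the 9 enzymes and other proteins of metabolism, 7 were tested, with a BrM2 against Par median of 0.65. HSD17B2, which oxidises oestradiol to the weaker oestrone, had the largest value of the block. It was at 0.63, 0.484 and 1.10 CPM in Par, 3.87, 2.04 and 1.69 CPM in LM2 and 7.38, 5.43 and 4.60 CPM in BrM2, so the 3 lines did not overlap. These low levels rest on 10 to 28 counts in Par and 96 to 123 in BrM2. The log2 fold change was 2.94 ± 0.44 (SE) in BrM2, and 1.75 ± 0.44 in LM2, where the adjusted p of edgeR was 0.040. No Par library of HSD17B2 reached the threshold of the filter, so the gene was tested because it was high in the sub-populations, and nothing is read from its p. Leaving out 1 of the 9 libraries at a time gave 1.31 to 2.17 in LM2. The call was lost without replicate 2 or 3 of BrM2, 1 or 2 of LM2, or 1 or 2 of Par, with adjusted p-values of 0.064 to 0.16.

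WWOX, an oxidoreductase with WW domains, lay at 5.20, 5.66 and 4.28 CPM in Par, 8.30, 6.32 and 5.48 CPM in LM2 and 22.9, 13.5 and 14.2 CPM in BrM2. BrM2 was above both other lines in every library, and LM2 and Par overlapped. The log2 fold change was 1.74 ± 0.29 against Par and 1.33 ± 0.28 against LM2 (adjusted p = 0.020 in edgeR). The call against LM2 was lost without replicate 2 (adjusted p = 0.096) or replicate 3 of LM2 (adjusted p = 0.089).

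SDR42E1, of the short-chain dehydrogenase family, was the member with LM2 on top: 21.4, 16.8 and 18.4 CPM in Par, 33.2, 22.6 and 27.2 CPM in LM2, and 24.5, 21.2 and 24.7 CPM in BrM2. Its LM2 libraries exceeded all Par libraries (0.55 ± 0.21, adjusted p = 0.16, and 0.0077 with the block), while BrM2 overlapped both lines. MLYCD, the malonyl-CoA decarboxylase that opposes fatty acid synthesis, was at 5.41, 5.71 and 5.93 CPM in Par, 4.27, 3.06 and 3.60 CPM in LM2 and 5.68, 5.25 and 4.55 CPM in BrM2. LM2 was under Par without overlap (-0.64 ± 0.21, adjusted p = 0.12, and 0.020 with the block), and the BrM2 value of -0.14 ± 0.21 was smaller than its error. MLYCD shares 457 exonic bases with OSGIN1 on the same strand, so part of its reads may be counted elsewhere or not at all. Of its 50-base stretches, 12.1% occur in other genes, but no count was found for the gene that shares most of them. The other tested members of this group were LDHD, a mitochondrial D-lactate dehydrogenase (1.24 ± 0.56 in BrM2, on 4 to 40 counts per library, with the filter passed in 1 BrM2 library alone), CMC2, for cytochrome c oxidase assembly (0.65 ± 0.25), and HSDL1, a hydroxysteroid dehydrogenase-like protein (0.57 ± 0.34). GCSH, of the glycine cleavage system, had 4 to 25 counts and was not tested.

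All 4 members with a part in RNA and translation were tested, and each was positive in BrM2, with a median of 0.95. KARS, which charges lysine to its tRNA, was at 198, 154 and 159 CPM in Par, 292, 215 and 211 CPM in LM2 and 416, 408 and 403 CPM in BrM2. The 3 lines were separate and the BrM2 libraries close together. The log2 fold change was 1.26 ± 0.19 in BrM2 and 0.49 ± 0.19 in LM2 (adjusted p = 0.17, and 0.0088 with the block). BrM2 exceeded LM2 by 0.77 ± 0.19 (adjusted p = 0.038). With 1 library left out the value ran from 0.69 to 0.94, and the call held without replicate 1 of LM2 or of Par and was lost without any other library (adjusted p-values of 0.068 to 0.16) and with relative log expression factors (adjusted p = 0.053).

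TAF1C, a subunit of the SL1 factor of RNA polymerase I, had the smallest BrM2 value of this group, 0.65 ± 0.28. Its libraries were at 16.2, 21.9 and 12.1 CPM in Par, 12.4, 14 and 11.8 CPM in LM2 and 33.9, 20 and 24.9 CPM in BrM2. BrM2 and Par overlapped, since the BrM2 library of number 2 was below its Par partner by 0.14 on the log2 scale, whereas BrM2 was above LM2 throughout (1.05 ± 0.28, adjusted p = 0.057, and 0.0044 with the block). ADAT1, a tRNA adenosine deaminase, was at 0.96 ± 0.18 in BrM2, and MPHOSPH6, which works with the RNA exosome, at 0.93 ± 0.34.

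Of the 8 genes of the nucleus and cell cycle, 7 were tested and all were positive in BrM2, with a median of 0.73. TERF2IP, the RAP1 protein of the telomere complex shelterin, was at 27.2, 24.3 and 29.1 CPM in Par, 33.4, 33.7 and 34.4 CPM in LM2 and 62.7, 60.3 and 63.9 CPM in BrM2. Each line was apart from the others and varied little, and the log2 fold change of 1.21 ± 0.16 in BrM2 stood beside 0.33 ± 0.16 in LM2 (adjusted p = 0.30, and 0.043 with the block). Against LM2, BrM2 was higher by 0.88 ± 0.16 (adjusted p = 0.010), with 0.86 to 0.89 over the fits that leave out 1 library. The call was lost in 2 of those 9, without replicate 3 of BrM2 (adjusted p = 0.056) and without replicate 2 of LM2 (adjusted p = 0.053).

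CFDP1, a chromatin-linked protein, had the smallest value here, 0.44 ± 0.31. It was at 24.8, 27.3 and 32.6 CPM in Par, 20.7, 37.7 and 37.3 CPM in LM2 and 26, 49.7 and 39.6 CPM in BrM2. The library of number 1 was the lowest in every line, and the lines overlapped. ZFP1, a zinc finger protein (0.78 ± 0.44), CDYL2, a chromodomain protein (0.73 ± 0.33), ATMIN, a cofactor of the ATM kinase (0.66 ± 0.23), CENPN, of the centromere (0.63 ± 0.20), and GINS2, of the replicative helicase (0.87 ± 0.33), lay between the 2. MAF, a transcription factor of the AP-1 superfamily, had 0 to 5 counts and was not tested.

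Of the 9 members that handle membranes and proteins, 7 were tested, all positive in BrM2 with a median of 0.70. WDR59, of the GATOR2 complex that passes amino acid levels to mTORC1, was at 25.5, 23.9 and 25.5 CPM in Par, 49.2, 38.5 and 37.2 CPM in LM2 and 52.3, 48.5 and 55.8 CPM in BrM2. Both sub-populations were above all Par libraries, while LM2 and BrM2 overlapped. LM2 was higher than Par by 0.74 ± 0.18 (adjusted p = 0.037), beside 1.06 ± 0.18 in BrM2. With 1 library left out the LM2 value ran from 0.60 to 0.81, and the call held without replicate 1 of BrM2 (adjusted p = 0.043) and was lost without any of the other 8 (0.062 to 0.15).

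ZDHHC7, a palmitoyltransferase of the Golgi, was highest in BrM2: 93.1, 87.4 and 86.9 CPM in Par, 102, 83.0 and 81.9 CPM in LM2 and 168, 141 and 152 CPM in BrM2. LM2 and Par overlapped around the same level, and BrM2 was 0.79 ± 0.17 above Par and 0.79 ± 0.17 above LM2 (adjusted p = 0.021). The call against LM2 was lost without any 1 of the BrM2 libraries or without replicate 2 or 3 of LM2, with adjusted p-values of 0.060 to 0.10. MBTPS1, the site-1 protease that activates SREBP factors, had the smallest BrM2 value of the group, 0.49 ± 0.20. It was at 181, 154 and 147 CPM in Par, 194, 136 and 131 CPM in LM2 and 242, 204 and 230 CPM in BrM2, with LM2 and Par overlapping and BrM2 above both. The rest were EMC8, of the ER membrane protein complex (0.86 ± 0.32), GABARAPL2, an autophagy protein (0.70 ± 0.17), TMEM170A, a membrane protein (0.57 ± 0.34), and MON1B, of an endosomal RAB activator (0.49 ± 0.19). VAT1L (0 to 19 counts) and the calcium and manganese pump ATP2C2 (10 to 37 counts) were not tested.

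**Figure D3:**
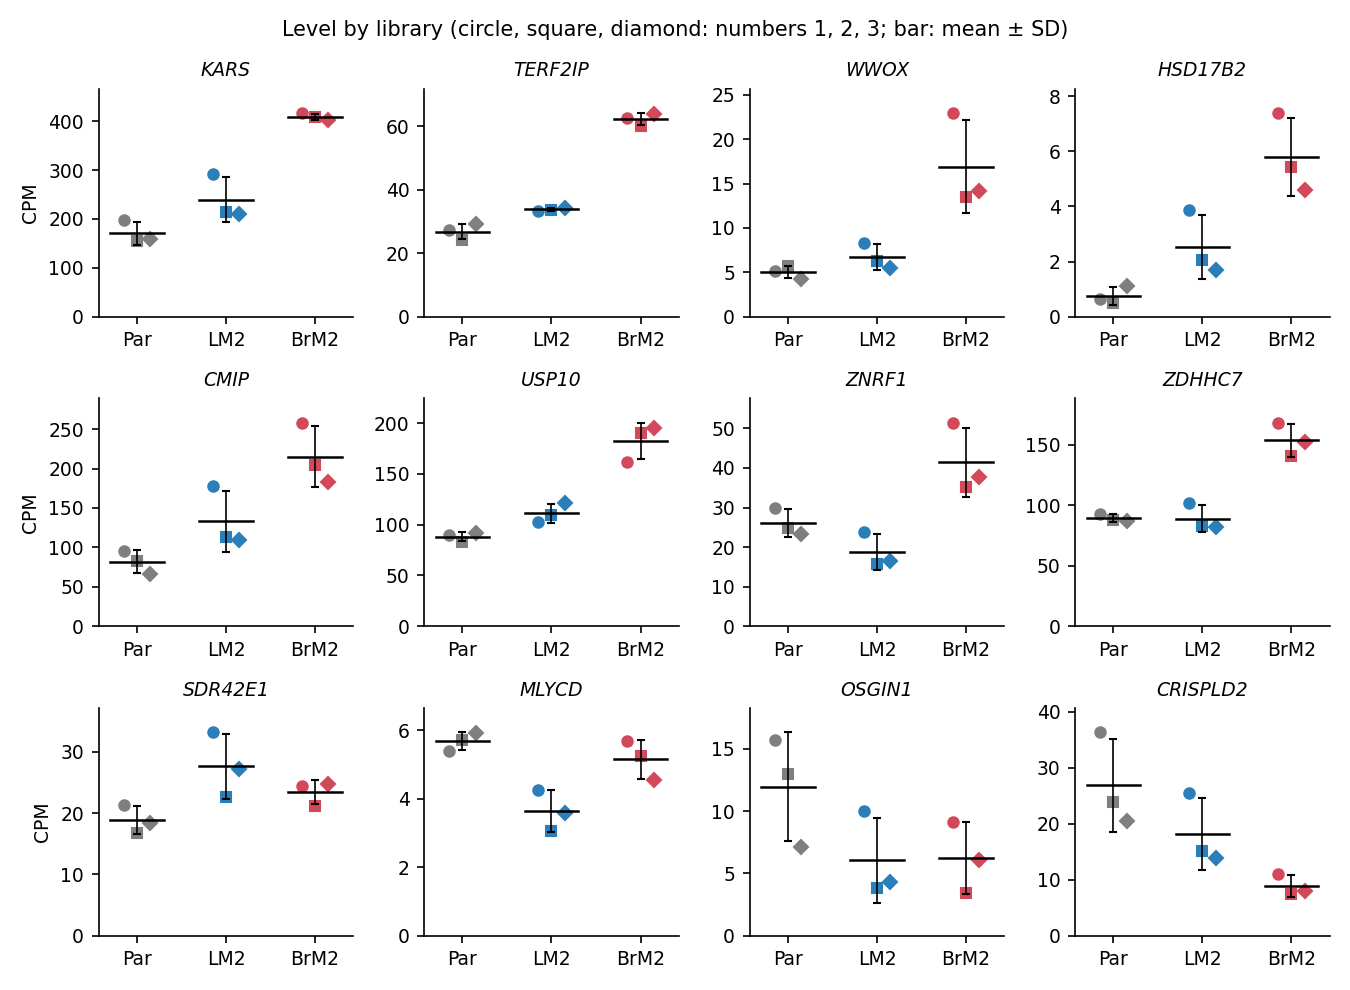
CPM of 12 members in every library, with a scale of its own from 0 for each gene, symbols for the replicate numbers 1, 2 and 3, and bars for the mean ± SD (n = 3). KARS, TERF2IP, WWOX, USP10, ZNRF1 and ZDHHC7 stand apart in BrM2, SDR42E1 is highest in LM2, and CRISPLD2 is lowest in BrM2.

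The 3 members of the ubiquitin system were all positive in BrM2. USP10, a deubiquitinase of p53, was at 90, 83.2 and 91.5 CPM in Par, 103, 109 and 121 CPM in LM2 and 162, 190 and 195 CPM in BrM2, with no overlap between the lines. It was 1.05 ± 0.16 above Par and 0.72 ± 0.16 above LM2 (adjusted p = 0.026), with 0.67 to 0.80 when 1 library was left out. The call against LM2 held without replicate 1 of any line and was lost without replicate 2 or 3 of any (adjusted p-values of 0.053 to 0.12). In LM2 it was 0.33 ± 0.16 above Par (adjusted p = 0.31, and 0.043 with the block).

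ZNRF1, an E3 ligase, moved to opposite sides: 30, 24.7 and 23.3 CPM in Par, 23.9, 15.7 and 16.4 CPM in LM2 and 51.4, 35.3 and 37.7 CPM in BrM2. BrM2 was above both lines in every library, and every LM2 library was below the Par library of its number. BrM2 exceeded LM2 by 1.15 ± 0.25 (adjusted p = 0.022), from 0.67 ± 0.24 over Par in BrM2 and -0.48 ± 0.24 in LM2 (adjusted p = 0.33, and 0.010 with the block). The call between the sub-populations was lost without any 1 of the BrM2 libraries or without replicate 2 or 3 of LM2, with adjusted p-values of 0.053 to 0.10. KLHL36, a kelch protein, had the smallest value of the 3, 0.45 ± 0.17, from 41, 38.2 and 44.2 CPM in Par to 40.4, 44.1 and 46.9 CPM in LM2 and 58.5, 49.9 and 60.1 CPM in BrM2. Its BrM2 libraries lay above the other 6.

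Among 8 members of signalling, cytoskeleton and stress, 5 were tested, and their values ran from -0.95 to 1.40. CMIP, an adaptor of T cell signalling, was at 95.6, 82.4 and 66.6 CPM in Par, 178, 113 and 109 CPM in LM2 and 258, 204 and 183 CPM in BrM2. The lines were separate, at 1.40 ± 0.26 in BrM2 and 0.71 ± 0.25 in LM2 (adjusted p = 0.14, and 0.0012 with the block). OSGIN1, a growth inhibitor induced by oxidative stress, went the other way: 15.7, 13 and 7.15 CPM in Par, 10.0, 3.84 and 4.29 CPM in LM2 and 9.15, 3.40 and 6.09 CPM in BrM2. Both sub-populations overlapped Par and were lower within every replicate number, with -0.95 ± 0.50 in BrM2 and -0.98 ± 0.49 in LM2 (adjusted p = 0.32, and 0.012 with the block).

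COTL1, an actin-binding protein, was at 0.94 ± 0.34 in BrM2 and 0.73 ± 0.34 in LM2 (adjusted p = 0.27, and 0.0015 with the block). HSBP1, which binds heat shock factor, was at 0.63 ± 0.15 in BrM2. BCAR1, the p130Cas adaptor, was at 0.20 ± 0.51, with the sign turned in number 2, where the BrM2 library was below Par by 1.01 on the log2 scale. DYNLRB2, a dynein light chain (0 to 3 counts), and NECAB2, a calcium-binding protein (0 to 1 count), were not tested. PLCG2, a phospholipase C of immune receptor signalling and 1 of the 2 members without a deposited symbol, was at 6.62, 4.94 and 4.16 CPM in Par, 8.30, 6.41 and 6.36 CPM in LM2 and 3.54, 2.56 and 4.94 CPM in BrM2. BrM2 overlapped Par (-0.51 ± 0.30) and was under LM2 in every library (-0.93 ± 0.30, adjusted p = 0.11, and 0.012 with the block). NUDT7, a peroxisomal hydrolase of coenzyme A, was the other and had 0 to 5 counts.

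Of the 5 members that modify glycans or are secreted, only CRISPLD2, a secreted protein that binds lipopolysaccharide, passed the filter. It was at 36.3, 23.8 and 20.4 CPM in Par, 25.5, 15.1 and 13.9 CPM in LM2 and 11.1, 7.5 and 7.91 CPM in BrM2. BrM2 lay under all other libraries, by -1.60 ± 0.33 against Par and -1.05 ± 0.33 against LM2 (adjusted p = 0.098, and 0.00034 with the block). It stands between USP10 and ZDHHC7, whose BrM2 values were 1.05 and 0.79. The sulfotransferases CHST6 (3 to 17 counts) and CHST5 (0 to 1 count), the protease ADAMTS18 (0 counts) and the protease inhibitor WFDC1 (0 counts) were not tested. KIAA0513, little characterised, was at 14.4, 10.8 and 10.2 CPM in Par, 14.8, 9.67 and 10.4 CPM in LM2 and 28.6, 16.3 and 23.6 CPM in BrM2. BrM2 was above the other libraries (0.95 ± 0.28 against Par and 0.97 ± 0.28 against LM2, adjusted p = 0.076, and 0.00074 with the block). C16orf46, also little characterised, had 0 to 3 counts.

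The shift did not stop at the ends of the block. Of 43 tested genes between EMC8 and the end of the chromosome, 40 had a positive log2 fold change in BrM2 against Par, with a median of 0.54 and quartiles of 0.35 and 0.68. In LM2, 17 of these 43 were positive and the median was -0.09, below the 0.26 of the members. On the centromere side, the 10 nearest tested genes had a BrM2 median of 0.57 with 8 positive, whereas the 164 genes of the long arm before WDR59 together had 0.18 with 101 positive. The short arm (281 genes) had a median of 0.04 in BrM2 and -0.07 in LM2. These values come from the contrast that chose the members and are given as a description, with neighbouring genes sharing the same libraries.

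In steps of 5 Mb from the start of WDR59, the BrM2 medians were 0.18 and 0.30 in the 2 stretches before it, 0.74 and 0.63 in the 2 that hold most members, and 0.60 and 0.47 in the 2 beyond. All 14 tested genes of the first stretch after the start of WDR59 were positive. The LM2 medians of the same 6 stretches were 0.09, 0.18, 0.25, 0.28, -0.07 and 0.09. Within the block, the members in map order, in 5 sets of 7, had BrM2 medians of 0.67, 0.96, 0.66, 0.57 and 0.86, and LM2 medians of 0.18, 0.33, 0.51, -0.06 and 0.09. The BrM2 medians of the sets were thus all positive and ran from 0.57 to 0.96. The LM2 medians were -0.06 and 0.09 in the last 2 sets, from HSBP1 to EMC8, and 0.18 to 0.51 in the others.

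**Figure D4:**
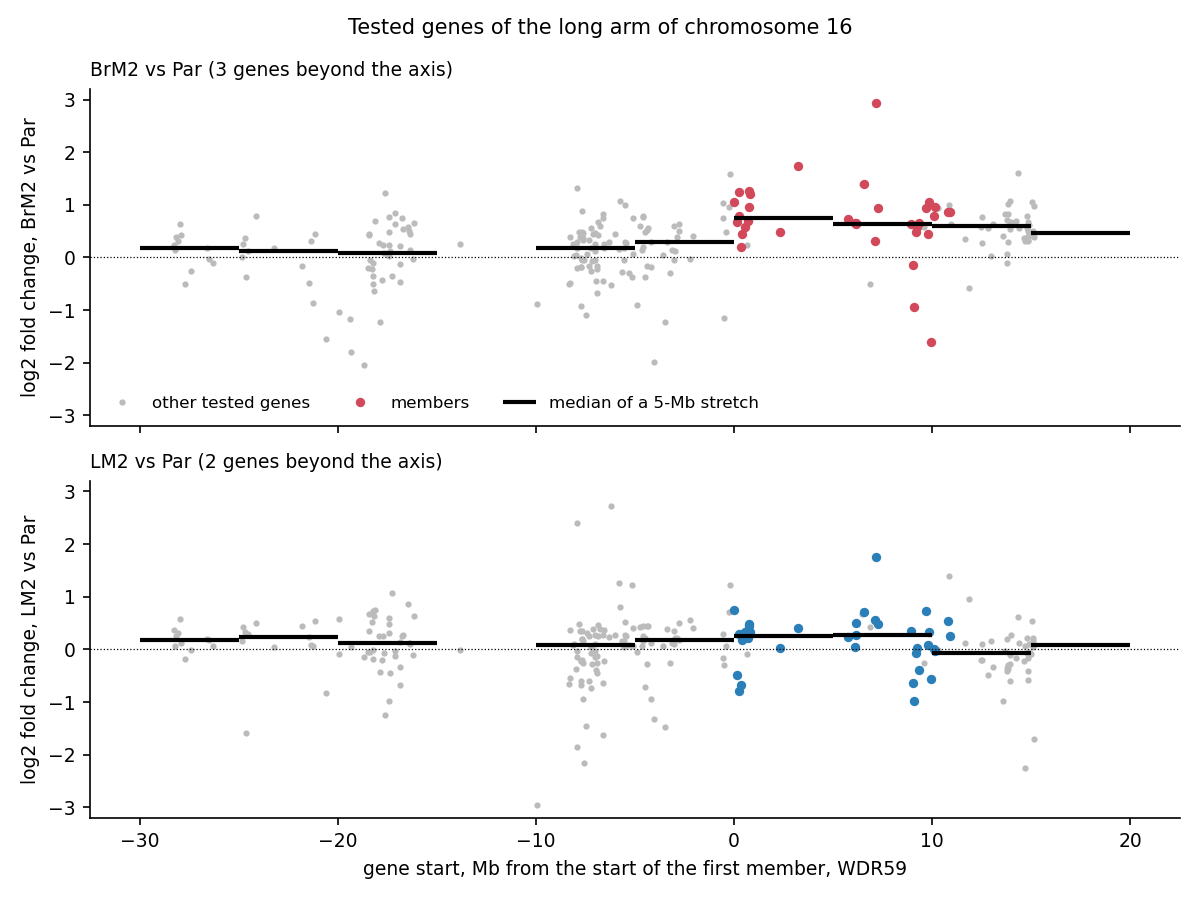
Each point is a tested gene of the long arm of chromosome 16, placed by its start in Mb from the start of WDR59, with members in colour and the fitted log2 fold change on the y axis for BrM2 (top) and LM2 (bottom). Black lines are medians of 5-Mb stretches with at least 5 genes. In BrM2 they are 0.30 in the stretch before WDR59, 0.74 in the one after it and 0.47 or more up to the end. The stretches are counted from WDR59 and so do not place an edge there: the 10 nearest tested genes before it had a BrM2 median of 0.57.

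Inside the interval, 5 tested genes are not members, and all 5 were positive in BrM2, with a median of 0.93. GSE1, which codes for a chromatin-associated protein, was called higher there (0.93 ± 0.17, adjusted p = 0.0065 in edgeR), as were 6.25% of all tested genes. The interval was picked on this contrast, so these values are a description and nothing is read from the call. In LM2, GSE1 was at -0.02 ± 0.17. GSE1 overlaps GINS2 by 7 exonic bases on the other strand.

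**Figure D5:**
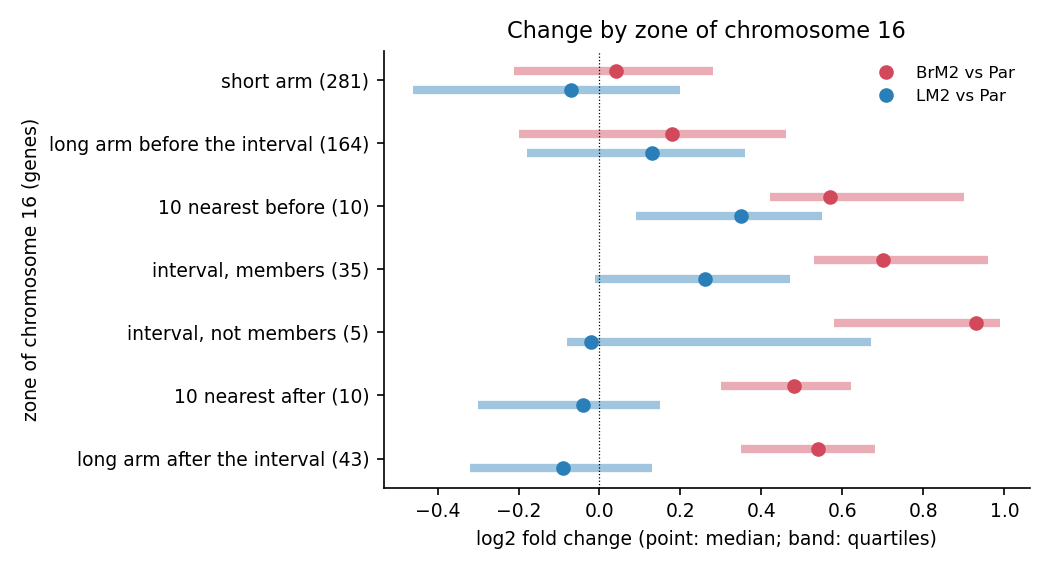
Medians (points) and quartiles (bands) of the log2 fold change against Par by zone of chromosome 16, red for BrM2 and blue for LM2, with the number of tested genes in brackets. The 10 nearest genes on each side are also counted in the 2 zones of the long arm outside the interval. The BrM2 medians are 0.48 or more in the block and in the zones beside and beyond it, and 0.18 or less in the others.

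Several members start from shared stretches of DNA. Tested members that face apart within 1000 bases of each other were KARS and TERF2IP, with 107 bases between them, and CMC2 and CENPN, with 328. The BrM2 values were 1.26 and 1.21 in the first pair and 0.65 and 0.63 in the second, while the LM2 values were 0.49 and 0.33, and 0.04 and 0.51. EMC8 faces COX4I1, a non-member, across 150 bases, with 0.86 and 0.64 in BrM2 and 0.26 and 0.26 in LM2. In the annotation, KARS and TERF2IP also overlap by 176 exonic bases, CENPN and CMC2 by 240 and WDR59 and ZNRF1 by 73, all on opposite strands. The strand that was counted is not given in the sources used here, so reads of these stretches cannot be told apart with certainty. These overlaps on opposite strands make up 0.8% to 4.3% of the exonic bases of these 6 genes. On the same strand, CENPN also shares 716 exonic bases (12.6%) with another counted gene, whose mean count was 239.6. Same-strand overlaps with counted genes were 8.6% of the exonic bases in BCAR1 and 8.2% in OSGIN1.

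Partners of the members outside the interval had medians near 0. For 11 members, 57 genes of the same complex or family were listed, and 52 were tested. In BrM2 against Par, 2 were higher and 2 lower (6.25% and 7.02% of all tested genes), with a median of 0.03. With the block, 11 were higher and 6 lower, beside 19.5% and 23.2% of all tested genes. In LM2 against Par, 2 were higher and 2 lower (4.17% and 4.52% of all tested genes), with a median of -0.04. Between BrM2 and LM2, 1 was higher and 1 lower (4.11% and 3.99% of all tested genes).

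The partners that passed in BrM2 against Par were GINS4, of the same complex as GINS2 (1.14 ± 0.24, adjusted p = 0.015 in edgeR), SEH1L, of GATOR2 with WDR59 (0.84 ± 0.23, adjusted p = 0.046), and 2 relatives of GABARAPL2, GABARAPL1 (-0.75 ± 0.18, adjusted p = 0.022) and MAP1LC3A (-2.93 ± 0.70, adjusted p = 0.024). GINS4 was also higher in LM2 (1.77 ± 0.25, adjusted p = 0.0025), where GINS2 was at 0.54 ± 0.33 (adjusted p = 0.43, and 0.018 with the block). GABARAPL1 was lower in LM2 by a like amount (-0.73 ± 0.17, adjusted p = 0.033), and GABARAPL2 was at 0.21 ± 0.17.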

How the data were processed

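RNA-seq counts of 9 libraries (3 lines, 3 replicates each) were used. The authors made stranded mRNA libraries, aligned reads to hg38 and deposited unnormalized counts per gene from STAR (2.7.0 per the labels), beside a table of their own DESeq2 fold changes and p-values, which was not used. Of 58887 rows, 3 repeated identifiers with the same counts were dropped. A filter written after HTSFilter (100 thresholds from 1 to 200, loess span 0.3) kept genes whose largest normalized count exceeded 47.15. Lines were compared with edgeR 4.0.16 (R 4.3.3), with TMM factors, the 2-sided quasi-likelihood test on all 9 libraries and Benjamini-Hochberg adjustment over 13055 genes. P-values measure the spread between passages, and with the block only the part of it left after the shift common to a replicate number. The members, lists and tests were chosen with earlier results of these data known. By rule, full values were given for the members with the largest and smallest BrM2 against Par change in each role list, the 5 with the smallest adjusted p in each other comparison, and those called in LM2 or negative in BrM2, which made 18. GSE1 and 4 partners were named as called in BrM2 against Par. PLCG2, NUDT7 and the other genes given with values were named because they are members, face a member or were needed beside a result.

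The labels only number the replicates, so pairing was checked in the data: deviations from the line means correlated across genes by 0.23 to 0.90 in all 9 same-numbered pairs, above 0.1. The common dispersion was 0.11 without and 0.021 with the block. The script was tested on simulated data with known changes. Positions and promoters came from RefSeq (GRCh38.p14), exon overlaps and shared 50-base stretches from GENCODE v44 on GRCh37, with no coordinates of it printed. Alternatives were other factors, other filters, DESeq2 1.42.0, fits of 6 libraries and left-out libraries. Figures used Python 3.11.15 and matplotlib 3.10.9.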

Additional observations from a re-analysis of the deposited data

Results flagged for a closer look

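For 6 members the changes of the sub-populations from Par differed by the direct edgeR test of BrM2 against LM2: WWOX by 1.33, ZNRF1 by 1.15, TERF2IP by 0.88, ZDHHC7 by 0.79, KARS by 0.77 and USP10 by 0.72 on the log2 scale. In this test 4.11% of all tested genes were called higher in BrM2. BrM2 was above LM2 in all 3 replicate numbers for each of the 6, which held for 30 of the 35 members and 30.6% of all tested genes. Each of the 6 calls was lost in 2 to 7 of the 9 fits that left out 1 library. The comparison shares BrM2 libraries with the one that chose the members.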

How the results depend on the processing

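The median log2 fold change of the members was positive in all 3 comparisons under every alternative run. The replicate block gave 29 members higher in BrM2 than in Par, 17 called in LM2 against Par and 24 higher in BrM2 than in LM2, in place of 11, 2 and 6. DESeq2 gave 11 higher in BrM2 than in LM2, and fits of the 6 libraries compared gave 0 there and 0 in LM2 against Par. The shares of all tested genes called in the fits of 6 libraries are not given, so these counts of 0 are not read as a result about the members. With 1 library left out, or, chosen after seeing the data, all 3 libraries of a replicate number, the counts ran from 0 to 28 in BrM2 against Par, 0 to 18 in LM2 against Par and 0 to 23 in BrM2 against LM2. The medians then ran from 0.68 to 0.85, 0.07 to 0.33 and 0.47 to 0.59. The counts of 28, 18 and 23 came without number 1, where 20.8% of all tested genes were called higher, 33.1% called and 16.9% called higher in the same fits. The counts without numbers 2 and 3 were 0 or 1, where these shares were 0.735%, 0.536% and 0.26%, and 1.31%, 1.04% and 0.513%. These fits hold 2 libraries per line. Of 1026 values of the 18 members under alternatives, 880 kept their side of the threshold, 94 lost and 52 gained a call, and 0 called values turned direction. Low counts limited the 11 members under the filter.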
